A study of Mus musculus with 6 samples.

Results

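The MHC class II presentation genes described here are 10 genes named by symbol: the class II chain genes *H2-Aa*, *H2-Ab1* and *H2-Eb1*, the peptide-exchange genes *H2-DMa* and *H2-DMb1*, the invariant chain gene *Cd74*, the transactivator gene *Ciita*, and *Cd86*, *Cd83* and *Cd80*. All 10 of 10 had a row among the 23204 genes counted, and all 10 were among the 14040 genes abundant enough to be tested. RNA came from osteoclasts, the bone-resorbing cells of the monocyte lineage, grown from bone marrow of C57BL/6 mice. M-CSF, which keeps myeloid precursors growing, was given throughout, and RANKL, which turns those precursors into osteoclasts, was added later. The 3 control libraries (numbered 1, 4 and 6 in the column names) are wild type. The other 3 (2, 3 and 5) carry the label Tet2Rank–/–; Tet3aRank+/–, read as loss of both *Tet2* alleles and 1 *Tet3* allele, and are called the libraries labelled mutant. All 6 share the strain and the culture, and each group has 1 female and 2 male samples, whose sex cannot be tied to a column. The labels give neither the deleted exons nor the meaning of Rank, they state no age, and they do not say which animals or cultures gave each library, so p-values measure only the spread between these libraries.

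Total counts ran from 8794973 to 14267135 per library. Column names of libraries 5 and 6 hold a second number and those of the other 4 do not. This split, the naming batch, has both genotypes on each side, and what it stands for is not given in the sources used here. *Tet2* averaged 52.0 CPM (counts scaled to library size by TMM) in the libraries labelled mutant and 77.3 CPM in wild type, while *Tet3* was not lower, at 153 against 131 CPM. Osteoclast markers were abundant in every library, summed over 11 genes at 3002 to 12477 CPM in the libraries labelled mutant and 15244 to 39903 CPM in wild type. In bulk RNA, more cells of one kind and more RNA per cell cannot be told apart, which applies to every difference below.

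Class II molecules display peptides from the endosome and lysosome to CD4 T cells. Their alpha and beta chains assemble on the invariant chain, which guides them to the endosome and is then cut down by lysosomal proteases. The DM heterodimer exchanges its last fragment for antigenic peptide. CIITA is recruited to a conserved promoter module, where RFX binds the X box and NF-Y binds the Y box, and it switches the whole set on in antigen-presenting cells. CD86 and CD80 give T cells the costimulatory signal through CD28, and CD83 marks activated presenting cells and keeps class II and CD86 at the surface. Macrophages, osteoclast precursors among them, can carry this machinery, and it is commonly turned down as osteoclasts form.

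Promoter sequences are shown because class II chain, DM and invariant chain genes are known to share this X-Y module. RefSeq windows (build GRCm38.p6, the patched form of mm10, 250 bases before to 50 bases after a transcript start) were matched for 5 of the 10 genes: *H2-Aa*, *H2-Eb1*, *H2-DMa*, *H2-DMb1* and *Cd80*. *H2-Ab1*, *Cd74*, *Ciita*, *Cd86* and *Cd83* had no entry. The search, with motifs chosen after looking at these windows, was for the Y box TGATTGG preceded by an X-like GNAAC with a gap of 15 to 30 bases, on both strands. The 3 class II genes that held the pair are shown 5′ to 3′ on the gene's strand, with GNAAC and TGATTGG in capitals.
H2-Aa (chr17:34287855-34287916, minus strand): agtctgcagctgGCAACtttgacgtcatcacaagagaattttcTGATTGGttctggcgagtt
H2-Eb1 (chr17:34305764-34305824, plus strand): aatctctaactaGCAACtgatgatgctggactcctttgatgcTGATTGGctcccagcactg
H2-DMb1 (chr17:34153085-34153146, plus strand): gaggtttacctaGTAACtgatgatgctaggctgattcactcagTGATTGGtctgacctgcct
The gap between the motifs was 26 bases in *H2-Aa*, 25 in *H2-Eb1* and 26 in *H2-DMb1*, and the Y box began 50, 61 and 63 bases before the start. Of 32851 promoter windows of all genes, 0.469% held such a pair and 7.82% held TGATTGG on either strand.

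The pair was also found at related genes that gave few or no counts in these cells, shown for comparison.
H2-Ob (chr17:34238806-34238864, plus strand): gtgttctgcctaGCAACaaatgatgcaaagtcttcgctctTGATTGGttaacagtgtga
H2-Oa (chr17:34092291-34092352, plus strand): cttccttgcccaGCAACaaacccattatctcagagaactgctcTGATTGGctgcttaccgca
H2-Eb2 (chr17:34325531-34325591, plus strand): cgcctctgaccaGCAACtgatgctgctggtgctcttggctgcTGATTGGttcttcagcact
*H2-Ob* and *H2-Oa* encode DO, an inhibitor of DM, and *H2-Eb2* is a further class II beta gene. They had at most 29, 11 and 4 counts in any library. *H2-DMb2* held TGATTGG but not the pair. Neither window of *H2-DMa* nor that of *Cd80* held TGATTGG on either strand, and so none held the pair. GNAAC was looked for only as part of the pair, so its presence alone in any window was not examined. A match is a description of the letters and not a measured binding site.

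**Figure D1:**
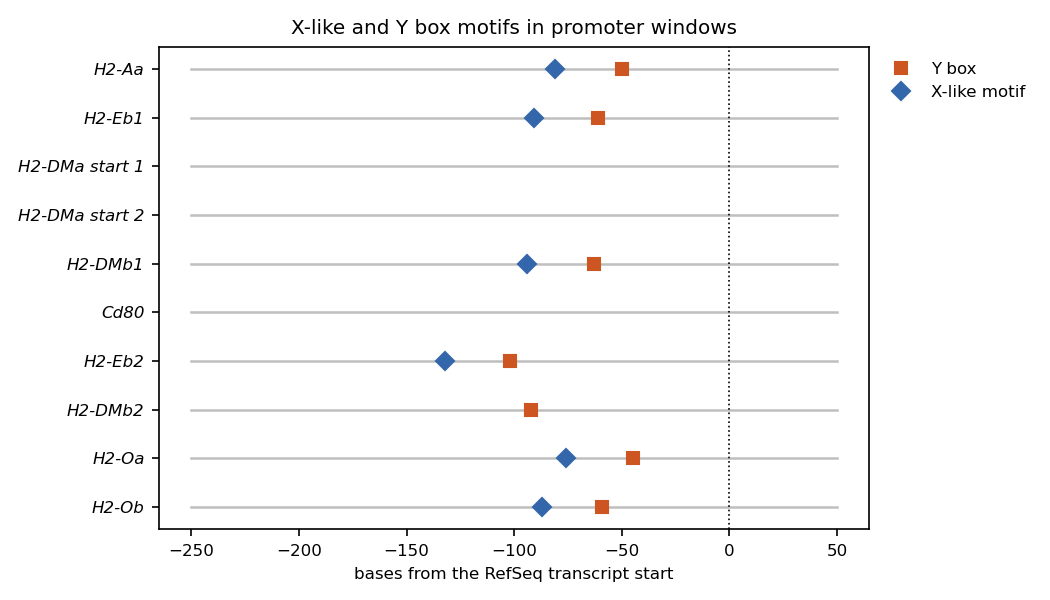
Positions of the X-like motif (diamonds) and the Y box (squares) along promoter windows, in bases from the RefSeq transcript start (dotted line at 0), one grey line per window. In the 6 genes with the pair, the Y box begins 45 to 102 bases before the start, and *H2-DMa* and *Cd80* have no Y box. The X-like motif is drawn only where it forms the pair.

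Among the class II chain genes, the highest library was always library 5, labelled mutant, and the lowest always wild-type library 4. *H2-Aa* (ENSMUSG00000036594, chromosome 17, 34282744 to 34287823), the alpha chain of the I-A molecule, stood at 193, 116 and 366 CPM in wild-type libraries 1, 4 and 6 and at 319.6, 268 and 1241 CPM in libraries 2, 3 and 5. Libraries 2 and 3 lay below wild-type library 6, so the genotypes overlapped. The means were 609.6 CPM ± 548 (SD, n = 3) in the libraries labelled mutant and 225 CPM ± 128 (SD, n = 3) in wild type, and *H2-Aa* had a log2 fold change of 1.44 (SE 0.705, adjusted p = 0.333 in edgeR). *H2-Ab1* (ENSMUSG00000073421, chromosome 17, 34257689 to 34269419), the I-A beta chain, had 148.5, 90.7 and 275 CPM in wild type and 237, 209 and 835 CPM in the libraries labelled mutant. It ordered the 6 libraries exactly as *H2-Aa* did, from 4, 1, 3, 2 and 6 up to 5. Its log2 fold change was 1.32 (SE 0.654, edgeR adjusted p = 0.339).

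*H2-Eb1* (ENSMUSG00000060586, chromosome 17, 34305867 to 34316674) encodes the beta chain of I-E, the other class II molecule. It had 104, 55.1 and 181 CPM in wild type and 165, 149 and 632 CPM in the libraries labelled mutant, again in the same order. The log2 fold change was 1.48 (SE 0.689, edgeR adjusted p = 0.308). C57BL/6 mice are known to lack a working I-E alpha gene, so their I-E beta chain has no partner. The alpha pseudogene *H2-Ea-ps* had 0 counts in 5 libraries and 1 count in library 5, while *H2-Eb1* had between 711 and 8489.

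*Cd74* (ENSMUSG00000024610, chromosome 18, 60803848 to 60812652), the invariant chain, had 733, 488 and 1078 CPM in wild type and 1112, 934 and 3130 CPM in the libraries labelled mutant. Library 3 lay below wild-type library 6, and library 2 stood just above it. The log2 fold change was 1.17 (SE 0.533, edgeR adjusted p = 0.297). With library 5 left out, the genotype-only values were 0.38 for *H2-Aa*, 0.37 for *H2-Ab1*, 0.47 for *H2-Eb1* and 0.41 for *Cd74*. The 4 genes kept close proportions to each other while each ranged widely. The highest library exceeded the lowest 10.7-fold for *H2-Aa*, 9.21-fold for *H2-Ab1*, 11.5-fold for *H2-Eb1* and 6.41-fold for *Cd74*. The count of *H2-Aa* per count of *H2-Ab1* nevertheless stayed between 1.28 and 1.49 over the 6 libraries, and that of *H2-Eb1* per *H2-Ab1* between 0.607 and 0.757. *Cd74* per *H2-Aa* varied more, from 2.52 in library 5 to 4.22 in library 4, so the invariant chain exceeded the alpha chain least where both were highest.

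The DM genes spanned a smaller range, 3.43-fold for *H2-DMa* and 2.95-fold for *H2-DMb1*. *H2-DMa* (ENSMUSG00000037649, chromosome 17, 34119541 to 34139101) stood at 37.7, 26.2 and 36.2 CPM in wild type and 55.0, 34.4 and 89.8 CPM in the libraries labelled mutant. *H2-DMb1* (ENSMUSG00000079547, chromosome 17, 34153072 to 34160230) stood at 37.8, 26.0 and 36.5 CPM against 47.5, 33.1 and 76.7 CPM. For both genes libraries 2 and 5 were the highest and library 3 lay below wild-type libraries 1 and 6. The log2 fold changes were 0.84 for *H2-DMa* (SE 0.350, edgeR adjusted p = 0.254) and 0.65 for *H2-DMb1* (SE 0.319, edgeR adjusted p = 0.331). Counts of the DM partners were almost equal in wild type, with 0.999 ± 0.00647 *H2-DMa* counts per *H2-DMb1* count (SD, n = 3) against 1.12 ± 0.0724 (SD, n = 3). *H2-DMa* shares 360 exonic bases with *Brd2* on the opposite strand, and *H2-DMb1* has a close paralog in *H2-DMb2*, so their counts carry some uncertainty. *H2-DMb2* had only 10 to 21 counts per library.

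*Ciita* (ENSMUSG00000022504, chromosome 16, 10480059 to 10528418) ordered the libraries differently from the genes it is known to activate. It had 52.6, 42.4 and 49.1 CPM in wild type and 41.8, 33.0 and 90.6 CPM in libraries 2, 3 and 5. Libraries 2 and 3 held the lowest values of the 6, and library 5 the highest. Over all 6 libraries the log2 difference was 0.20 (SE 0.371, edgeR adjusted p = 0.866), and it became -0.36 (SE 0.167, edgeR adjusted p = 0.358) when library 5 was left out. Set against *Ciita*, *Cd74* counts were 13.9, 11.5 and 21.9 per *Ciita* count in wild type and 26.6, 28.3 and 34.6 in the libraries labelled mutant. The genotypes did not overlap in this ratio, which was chosen after its values were seen and was not tested. Per *Ciita* count, *H2-Aa* gave 3.67, 2.72 and 7.45 counts in wild type and 7.65, 8.11 and 13.7 in the libraries labelled mutant. *Ciita* shares 329 exonic bases with *Dexi* on the opposite strand, and gene counts do not separate its alternative promoters.

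The 3 ligand and activation genes separated by genotype. *Cd86* (ENSMUSG00000022901, chromosome 16, 36603869 to 36666081) had 25.9, 21.2 and 15.5 CPM in wild type and 48.6, 37.9 and 46.0 CPM in libraries 2, 3 and 5. Every library labelled mutant exceeded every wild-type library. The means were 44.2 CPM ± 5.58 (SD, n = 3) and 20.9 CPM ± 5.22 (SD, n = 3), and the log2 fold change was 1.09 (SE 0.209, edgeR adjusted p = 0.0826). *Cd83* (ENSMUSG00000015396, chromosome 13, 43784775 to 43803132) had 11.9, 6.27 and 8.50 CPM in wild type and 34.2, 17.6 and 26.4 CPM in the libraries labelled mutant, again without overlap. Its log2 fold change was 1.56 (SE 0.330, edgeR adjusted p = 0.0925), the highest of the 10. *Cd80* (ENSMUSG00000075122, chromosome 16, 38455561 to 38496335) had 9.57, 7.20 and 4.49 CPM against 11.6, 13.5 and 10.7 CPM. The gap between library 1 and library 5 was narrow, the counts behind it ran from 56 to 165 per library, and the log2 fold change was 0.75 (SE 0.313, edgeR adjusted p = 0.256).

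**Figure D2:**
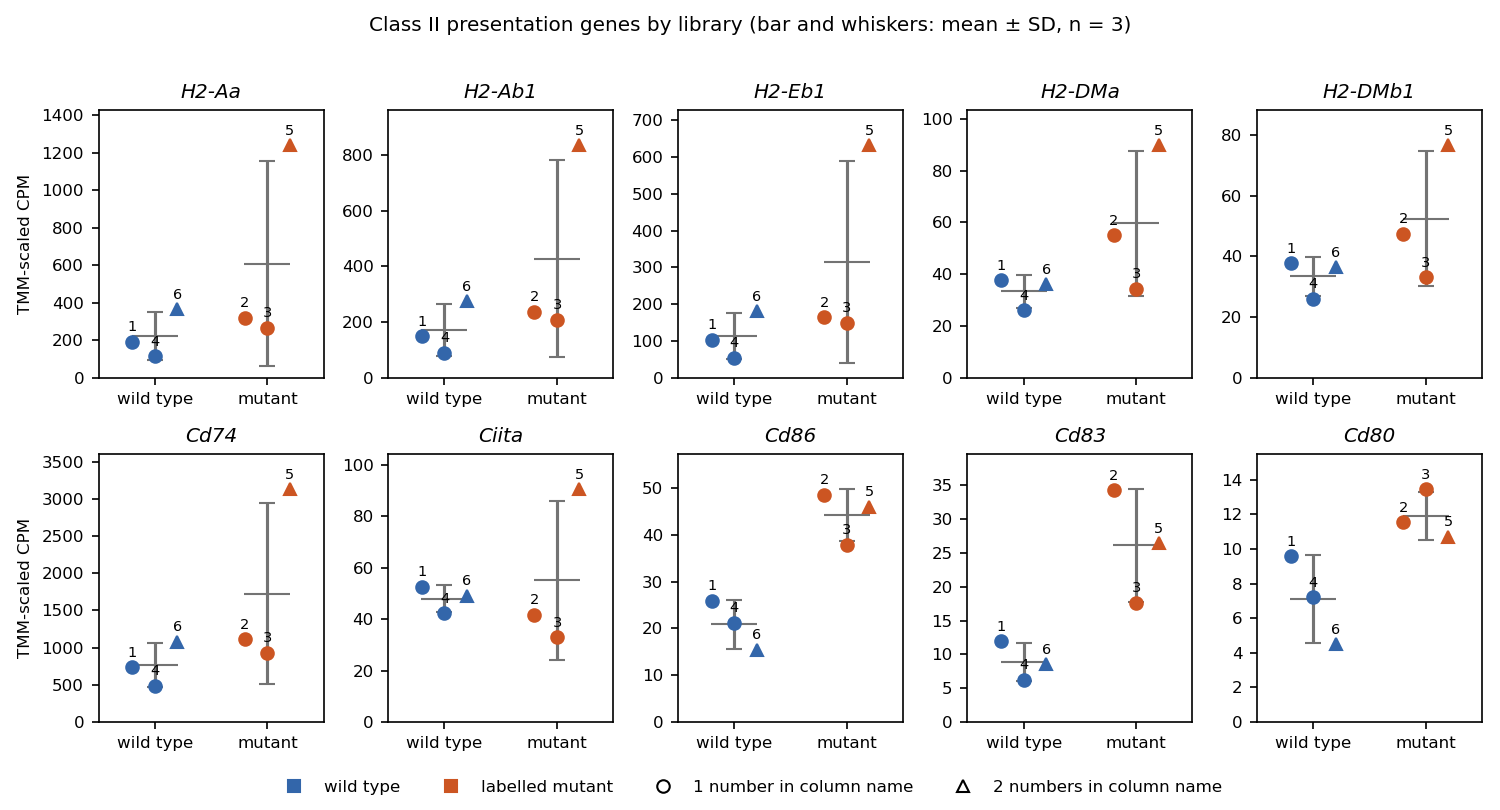
CPM of each gene in every library (y axes start at 0 and differ between panels), with wild type in blue and the libraries labelled mutant in orange; circles and triangles mark column names with 1 and 2 numbers, and the bar and whiskers give the mean and SD of 3 libraries. Library 5 tops the class II, DM, *Cd74* and *Ciita* panels, while *Cd86*, *Cd83* and *Cd80* separate by genotype.

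Over all genes tested, 0 of the 10 passed an adjusted p of 0.05 in edgeR's quasi-likelihood test with genotype as the only term, where 0.0712% of genes passed in either direction. At an unadjusted p under 0.05, 3 of the 10 were higher (*Cd86*, *Cd83* and *H2-DMa*) against 7.19% of all genes tested. The libraries of 3 (*Cd86*, *Cd83* and *Cd80*) lay wholly above wild type, against 9.91% of all genes. DESeq2 called 2 of the 10 higher, *Cd86* (adjusted p = 0.000261) and *Cd83* (adjusted p = 0.000650), where it called 5.26% of the 11951 genes it tested. All 10 log2 fold changes lay above 0, with a median of 1.13, while the median of all genes tested was -0.03.

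The class II chain genes also differed along the naming batch. In the fit with both terms, *H2-Aa*, *H2-Ab1* and *H2-Eb1* were higher in libraries 5 and 6 than in the other 4 by log2 differences of 1.69, 1.57 and 1.62 (SE 0.259, 0.235 and 0.276, edgeR adjusted p = 0.0435, 0.0435 and 0.0460). *Cd74* had 1.24 (SE 0.243, edgeR adjusted p = 0.0550). Of all genes tested, 0.463% were called higher in these libraries, among them 5 of the 7 tested neutrophil markers described below. The naming batch values of *Cd86*, *Cd83* and *Cd80* were -0.23, -0.03 and -0.53, and none of these passed (edgeR adjusted p = 0.536, 0.974 and 0.287).

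In that fit with genotype and naming batch (the naming-batch fit), 6 of the 10 genes were called higher in the libraries labelled mutant, against 3.08% of all genes. These were *H2-Aa* (log2 fold change 1.21, edgeR adjusted p = 0.0381), *H2-Ab1* (1.14, 0.0346), *H2-Eb1* (1.26, 0.0395), *Cd74* (1.01, 0.0494), *Cd86* (1.11, 0.0243) and *Cd83* (1.57, 0.0372). *H2-DMa* (0.77), *H2-DMb1* (0.59), *Cd80* (0.80) and *Ciita* (0.07) did not pass (edgeR adjusted p = 0.119, 0.173, 0.105 and 0.913). Leaving out 1 library from that fit gave 6 calls without library 1 and 7 without library 3, where *H2-DMa* joined. There were 0 without library 2, 4, 5 or 6. Over all genes, those called higher numbered 343 without library 1, 697 without library 3, 187 without library 2 and 74 without library 4. Without library 5, and likewise without library 6, only 1 gene was called higher, so 0 of the 10 there says little about these genes. Without library 5 or 6, the naming-batch term is fitted by the 1 library left on that side, and the genotype difference comes from libraries 1 to 4 alone.

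Within the 4 libraries with 1 number in their names, the log2 ratio of libraries 2 and 3 to libraries 1 and 4 was 0.97 for *H2-Aa*, 0.94 for *H2-Ab1*, 1.05 for *H2-Eb1* and 0.77 for *Cd74*. Between libraries 5 and 6 it was 1.76, 1.60, 1.80 and 1.54. *Cd83* had 1.49 and 1.62, *Cd86* 0.87 and 1.56, *H2-DMa* 0.47 and 1.31, *H2-DMb1* 0.34 and 1.07, and *Cd80* 0.58 and 1.22. The values of 9 of the 10 genes thus lay above 0 on both sides of the split. Several of these genes followed each other closely over the libraries, and the share of all genes above 0 on both sides was not computed. *Ciita* had -0.35 and 0.88. A genotype-by-naming-batch term gave 0 calls among the 10 genes and 0 among all 14040, with unadjusted p under 0.05 for 129 genes, of which *Ciita* was the only one of the 10 (edgeR, log2 difference 1.22, SE 0.326, adjusted p = 1).

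**Figure D3:**
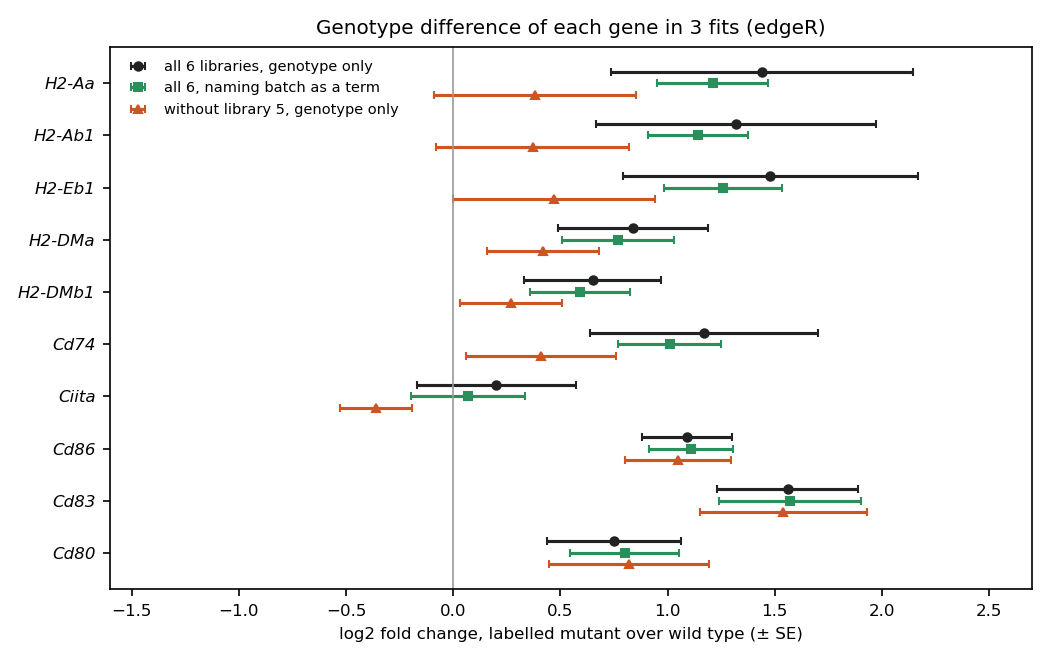
Log2 fold change of each gene, libraries labelled mutant over wild type, with its standard error, from edgeR fits with genotype only on all 6 libraries (black), from the naming-batch fit (green) and without library 5 (orange). Without library 5 *H2-Aa* stands at 0.38 and *Ciita* at -0.36, and *Cd86* and *Cd83* at 1.05 and 1.54.

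The pattern over the 6 libraries was averaged in blocks of genes by role. With each gene's mean log2 CPM subtracted, the 3 chain genes with *Cd74* averaged -0.61, -1.35 and 0.18 in wild type and 0.06, -0.15 and 1.86 in the libraries labelled mutant. The DM genes followed a shallower course, at -0.14, -0.67 and -0.19 against 0.30, -0.30 and 1.0. *Cd86*, *Cd83* and *Cd80* together averaged -0.14, -0.67 and -0.90 against 0.75, 0.39 and 0.57, so library 6, the highest wild-type library for the chains, was the lowest for the ligands. The blocks follow the genes' roles and are not sharp. Described over the 6 libraries, which share the culture and differ in depth, Pearson's r was 0.996 or more between any pair of the 4 chain and invariant chain genes, 0.995 between the DM genes and 0.923, 0.897 and 0.723 between *Cd86* and *Cd83*, *Cd86* and *Cd80*, and *Cd83* and *Cd80*. Across blocks it was 0.909 to 0.95 between the chain or invariant chain genes and the DM genes, as high as between *Cd86* and *Cd83*. *Cd83* reached 0.80 with *H2-DMa*, more than with *Cd80*. *H2-Aa* had 0.745 with *Ciita*, 0.634 with *Cd83*, 0.480 with *Cd86* and 0.169 with *Cd80*.

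**Figure D4:**
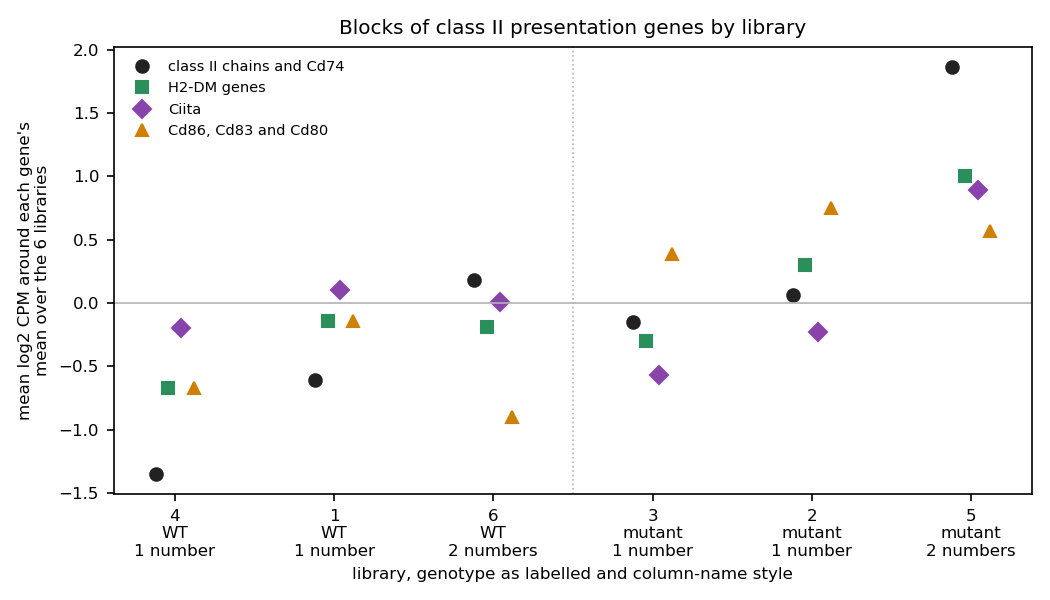
Log2 CPM minus each gene's own mean, averaged within 4 blocks of genes, by library; the dotted line divides wild type from the libraries labelled mutant. The chain block reaches 1.86 in library 5 and -1.35 in library 4, and the ligand block is above 0 in all 3 libraries labelled mutant and below 0 in all 3 of wild type.

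Compared per length of the exon union, in CPM per kilobase, *Cd74* was the most abundant of the 10 in wild type, at 456 ± 176 (SD, n = 3). The chain genes came next, *H2-Ab1* at 66.7 ± 36.6, *H2-Aa* at 59.3 ± 33.8 and *H2-Eb1* at 58.3 ± 32.7, with SDs that exceed the differences between them. These SDs come from library differences that the 3 genes share, and within each wild-type library *H2-Ab1* was the highest of the 3, at 57.8, 35.3 and 107 against 50.9, 30.4 and 96.4 for *H2-Aa* and 53.4, 28.3 and 93.1 for *H2-Eb1*. *H2-DMb1* followed at 19.9 ± 3.84 and *H2-DMa* at 9.68 ± 1.82. *Cd86* (5.70 ± 1.43) and *Ciita* (5.04 ± 0.543) came next, with *Ciita* above *Cd86* only in wild-type library 6, at 5.15 against 4.23. *Cd83* (3.46 ± 1.10) lay below both in every wild-type library, and *Cd80* was lowest at 1.91 ± 0.686. In the libraries labelled mutant *Cd74* stood at 1028 ± 726, the chains between 160.5 and 166, *Cd86* at 12.1 ± 1.52 and *Ciita* at 5.78 ± 3.25 on the same scale. The union counts rare exons, which lowers a gene's value.

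Likeness in log2 CPM to the mean of *H2-Aa*, *H2-Ab1*, *H2-Eb1* and *Cd74* was taken over 10286 genes outside the 10. These had a mean of 5 CPM or more, and genes with predicted, unnamed, ribosomal or mitochondrial symbols were left out. The closest were *Irf2* (Pearson's r 0.998, Spearman's rho 0.943), *Plac8* (0.991, 0.943), *Msr1* (0.988, 0.943) and *Ahrr* (0.982, 1.0). *Itgad* (0.982, 0.829), *Lrrfip1* (0.980, 1.0), *Gpx7* (0.976, 0.943) and *Plbd2* (0.973, 0.829) came after them. In all, 32 of the 10286 genes compared reached an r of 0.95 over the 6 libraries. *Irf2* encodes an interferon regulatory factor and is on the interferon gamma list below. Its range was far smaller than that of the chains, from 46.9 CPM in library 4 to 62.2 CPM in library 5. *Msr1*, a macrophage scavenger receptor gene, went from 100.4 to 240 CPM between the same libraries.

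The other genes of the pathway were taken from 7 lists with 59 genes in the table, of which 52 were tested. In edgeR 0 passed in either direction with genotype only, while 17 were higher and 4 lower at an unadjusted p under 0.05, against 7.19% and 12.4% of all genes tested. Of the 52, 37 lay above 0, against 46.8% of all genes tested, and their median log2 fold change was 0.25. DESeq2 called 12 higher and 2 lower, against 5.26% and 6% of the genes it tested. In the naming-batch fit 6 were called higher and 2 lower, against 3.08% and 5.6% of all genes. The 6 were *Lgmn*, *Ifngr1*, *Irf8*, *Il10ra*, *Fcgrt* and *Icosl*, and the 2 were *Ifi30* and *Cd276* (of these, *Lgmn*, *Fcgrt*, *Icosl*, *Ifi30* and *Cd276* were named after their values were seen).

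Of 9 genes that process antigen and the invariant chain in the lysosome, 7 lay above 0, and 4 had libraries wholly above wild type, where 46.8% and 9.91% of all genes tested did. *Lgmn* encodes an asparagine endopeptidase that can cut the invariant chain. It had 756, 581 and 563 CPM in wild type and 1445, 1102 and 1558 CPM in the libraries labelled mutant. Its log2 fold change was 1.11 (SE 0.199, edgeR adjusted p = 0.0768, and 0.0251 in the naming-batch fit). *Ifi30* encodes GILT, a lysosomal reductase that opens disulfide bonds of antigens for class II presentation. Its difference had the opposite sign, with 793, 721 and 1005 CPM in wild type and 114, 213 and 286 CPM in libraries 2, 3 and 5. Every library labelled mutant lay far below wild type, and the log2 fold change was -2.04 (SE 0.349, edgeR adjusted p = 0.0764, and 0.0136 in the naming-batch fit). *Ctsb* and *Ctsd*, lysosomal proteases, averaged 9387 and 3539 CPM against 5012 and 2159 CPM, with every library labelled mutant above wild type. Neither passed in edgeR with genotype only (adjusted p = 0.138 and 0.12) or in the naming-batch fit (0.0766 and 0.0655), while DESeq2 called both higher (adjusted p = 0.00284 and 0.000989). *Ctss*, the protease that finishes invariant chain cleavage in many presenting cells, averaged 2851 CPM ± 921 against 1881 CPM ± 639 (SD, n = 3 each), with overlap.

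Genes of the factors that bind class II promoters had log2 fold changes from -0.32 (*Rfx5*) to 0.24 (*Nfya*), with a median of 0.04 over 7 genes. *Nfya* averaged 115 against 97.2 CPM, *Creb1* 78.1 against 72.6 CPM and *Nfyc* 44.8 against 55.0 CPM. *Rfx5*, an RFX subunit gene named after its values were seen, averaged 19.5 CPM ± 3.51 against 24.3 CPM ± 6.65 (SD, n = 3 each). On the interferon gamma route to *Ciita*, 8 of 9 genes lay above 0. The receptor gene *Ifngr1* had 197, 185 and 137 CPM in wild type and 259.6, 258.5 and 241 CPM in the libraries labelled mutant (log2 fold change 0.55, edgeR adjusted p = 0.138, and 0.0378 in the naming-batch fit). The partner receptor *Ifngr2* averaged 161 against 173 CPM, and the kinase gene *Jak1* 335 against 258 CPM.

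Of 10 transcription factor genes of presenting myeloid cells, 6 lay above 0. *Irf8*, needed for monocyte and dendritic cell fates, averaged 178 CPM ± 18.7 against 96.8 CPM ± 35.0 (SD, n = 3 each, log2 fold change 0.88, edgeR adjusted p = 0.15, and 0.0368 in the naming-batch fit). *Spi1* averaged 328 against 443.5 CPM and *Zeb2* 484 against 402 CPM, both with overlap between the genotypes. All 8 genes of class II turnover and its regulators lay above 0. *March1* encodes a ubiquitin ligase that removes class II and CD86 from the surface, and was named after its values were seen. It had 56.5, 33.7 and 30.1 CPM in wild type and 96.8, 63.4 and 87.0 CPM in the libraries labelled mutant (log2 fold change 1.04, edgeR adjusted p = 0.125, and 0.0547 in the naming-batch fit). *Il10ra*, a receptor chain for interleukin 10, averaged 240 against 128 CPM, *Tgfb1* 267 against 193 CPM and *Fcgrt*, the neonatal Fc receptor gene, 191 against 127 CPM.

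Other costimulatory and coinhibitory ligands were divided, with 3 of 8 above 0. *Icosl*, the ligand of ICOS on T cells, had 5.83, 4.96 and 3.53 CPM in wild type and 17.3, 11.2 and 13.2 CPM in the libraries labelled mutant (log2 fold change 1.54, edgeR adjusted p = 0.0786, and 0.0235 in the naming-batch fit). *Cd276*, which encodes B7-H3, had 33.7, 37.0 and 47.2 CPM against 10.6, 21.3 and 22.2 CPM (log2 fold change -1.13, edgeR adjusted p = 0.125, and 0.0392 in the naming-batch fit). *Cd274*, which encodes PD-L1, averaged 37.9 CPM ± 15.8 against 52.9 CPM ± 4.86 (SD, n = 3 each), with library 5 at 54.7 CPM. *Vsir* averaged 627 against 471 CPM and *Lgals9* 168 against 93.2 CPM.

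**Figure D5:**
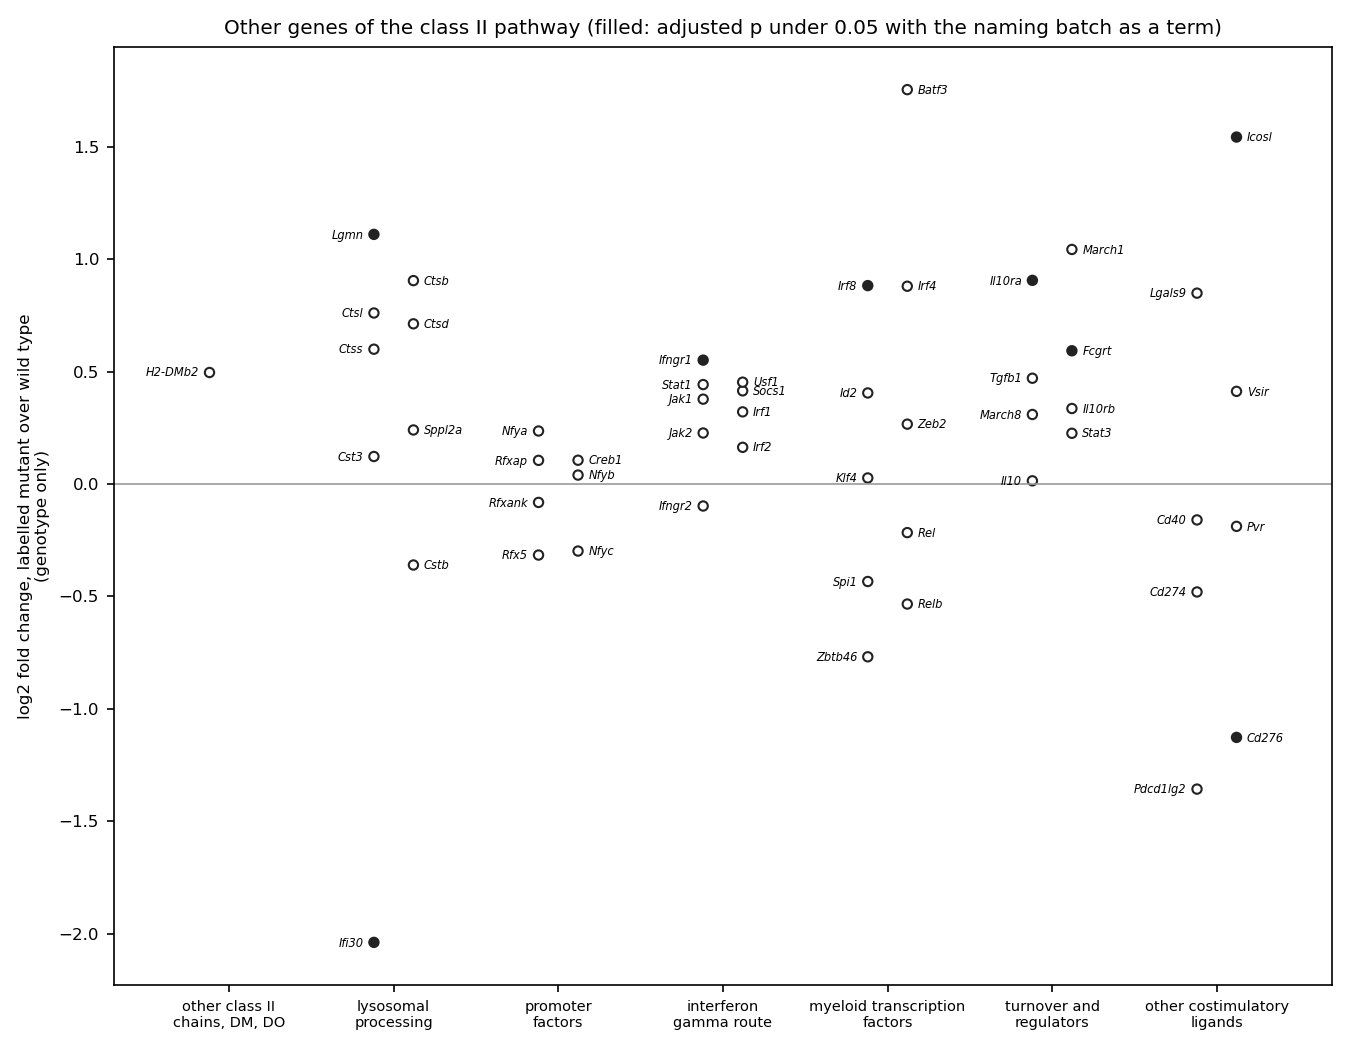
Log2 fold change with genotype only for the 52 tested genes of the 7 pathway lists, one point per gene; filled points passed an adjusted p of 0.05 (edgeR) in the naming-batch fit. *Ifi30* stands at -2.04 while most other lysosomal genes lie above 0, and promoter factors cluster near 0.

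Markers of other cells were summed per library beside these results. Neutrophil markers (8 genes, *S100a9* and *Ngp* the most abundant) ran from 247 CPM in library 4 and 282 in library 1 to 434, 532 and 884 in libraries 2, 3 and 6 and 1346 in library 5, with the same extremes as the class II chains, and 7 of 7 tested had log2 fold changes above 0. Stromal markers (8 genes, 7 of 8 above 0, *Col1a1* and *Col1a2*) stood at 972, 1058 and 2663 CPM in libraries 1, 4 and 6 and 859, 2318 and 3632 CPM in libraries 2, 3 and 5. B cell markers (10 genes, 5 of 5 tested above 0, *Cd22* and *Cd79b*) stood at 34.4, 25.9 and 28.0 CPM against 40.1, 45.8 and 68.6 CPM, with *Ms4a1* and *Pax5* at or below 2.16 CPM and *Cr2* at 0 or 1 count. Dendritic cell markers (12 genes, 7 of 9 tested above 0, *Clec10a* and *Fscn1*) stood at 465, 312 and 199 CPM against 427, 445 and 321 CPM, most of it *Clec10a*. The other 11 summed to 59.0, 69.2 and 103 CPM in wild type and 82.6, 142 and 175 CPM in the libraries labelled mutant. Without *Clec10a*, library 6 was thus the highest of wild type and library 5 the highest of all, as for the class II chains. Library 3 lay above library 6, unlike for the chains. Most of the sum in libraries 3, 5 and 6 was *Fscn1*, at 103.7, 131.7 and 59.32 CPM. The likeness to the chains therefore rests largely on this gene. Of the markers that define dendritic cells, *Itgax* and *Zbtb46* were highest in library 6, at 23.2 and 6.01 CPM. They were the 2 tested markers below 0, with log2 fold changes of -0.73 and -0.77, opposite in sign to the chains. Neither passed (edgeR adjusted p = 0.575 and 0.37), though *Zbtb46* was lower in every library labelled mutant than in any wild-type library. *Batf3*, *Clec9a* and *Xcr1*, named after their values were seen, and *Flt3* were highest in library 5, at 3.80, 1.41, 1.04 and 2.31 CPM. *Ccr7* was at or below 0.583 CPM. T and NK cell markers (8 genes, 1 of 2 tested above 0) summed to 157, 75.0 and 40.6 CPM against 173, 158 and 127 CPM, nearly all *Cd4*, with *Trac* at or below 5.93 CPM and *Cd3e*, *Cd3g* and *Cd3d* at 0 or 1 count.

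Macrophage markers (10 genes, 8 of 10 above 0) stood at 6915, 5497 and 5710 CPM in wild type and 8606, 7985 and 8786 CPM in the libraries labelled mutant. The most abundant, *Csf1r* and *Cd68*, had log2 fold changes of only 0.12 and -0.15, with overlap between the genotypes. Without *Csf1r*, the other 9 summed to 3781, 2934 and 2684 CPM against 5362, 4966 and 5585 CPM. Monocyte markers (6 genes, 6 of 6 above 0, *F13a1* and *Ccr2*) stood at 273, 197 and 260 CPM against 954, 774 and 815 CPM, without overlap. Most of the sum in libraries 2, 3 and 5 was *F13a1*, at 633, 580 and 459 CPM. Without it, the other 5 summed to 126, 116.5 and 188 CPM against 321, 195 and 356 CPM, with library 3 just above library 6. Only *F13a1* and *Ccr2*, 2 of the 6, lay wholly above wild type, against 9.91% of all genes tested. Osteoclast markers (11 genes, *Mmp9* and *Ctsk*) all had log2 fold changes below 0, and summed to 18531, 15244 and 39903 CPM against 3002, 8509 and 12477 CPM. The part of any of these cells in the class II values was not tested.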

How the data were processed

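RNA-seq counts of 3 wild-type osteoclast libraries and 3 labelled Tet2Rank–/–; Tet3aRank+/– were used. The authors deposited whole-number counts per Ensembl gene, not normalized. TopHat2 2.0.13, Bowtie2 2.2.3, SAMtools 0.1.19 and mm10 were used per the submitters' processing notes. The kit marks strand; the counting program and its strand setting were not given in the sources used here.

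The table had 23264 rows, and 60 that repeated a gene were dropped. Columns were tied to genotypes by name only. Spreadsheet dates stood in place of 22 symbols, and *March1* was matched by gene ID. Counts scaled by TMM and filtered by filterByExpr were tested in edgeR 4.0.16 (R 4.3.3), quasi-likelihood test, with Benjamini-Hochberg adjustment over all 14040 genes tested and a threshold of 0.05. SE was obtained as the absolute fold change (log2) divided by the root of F. The test was tried on simulated data first. Alternatives were the naming batch as a term, DESeq2 1.42.0, RLE size factors, other filters and leaving out each library. The interaction, the naming batch coefficient and leaving out libraries with the batch term were added after seeing the data. Log2 CPM used a prior count of 2. Lengths are GENCODE M21 exon unions.

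The genes and lists were chosen with earlier results of these data known. The text names all 10 genes, up to 3 per pathway list by p if called or else by mean CPM, up to 2 per cell marker list by mean CPM, the 8 genes most alike, and others marked as chosen after their values were seen. The level of 1 listed marker gene is not reported here.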

Additional observations from a re-analysis of the deposited data

How the results depend on the processing

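With genotype only, edgeR called 7 genes higher and 3 lower over all genes and 0 of the 10 class II genes or their pathway genes. With the naming batch as a term it called 433 higher and 786 lower, 6 of the 10 higher, and 6 pathway genes higher and 2 lower. DESeq2 called 629 higher and 717 lower, 2 of the 10 higher, and 12 pathway genes higher and 2 lower. Without a filter on low counts there were 46 higher and 35 lower, and 0 of the 10. RLE size factors or a filter of 1 CPM in 3 libraries left 0 of the 10. Leaving out 1 library gave 0 to 2 higher and 0 to 1 lower over all genes, and 0 of the 10. With the naming batch as a term as well, it gave 1 to 697 higher and 0 to 1148 lower, 0 to 7 of the 10, and 0 to 13 pathway genes higher and 0 to 3 lower. The log2 fold change of *Ciita* reversed from 0.20 to -0.36 without library 5 (0.46 without library 3), and to -0.34 with the naming batch as a term without library 5 or 6; the other 9 genes kept their direction in every setting run. Without library 5 the genotype-only value of *H2-Aa* was 0.38, of *H2-Ab1* 0.37, of *H2-Eb1* 0.47 and of *Cd74* 0.41, against 1.05 and 1.54 for *Cd86* and *Cd83*. The cause of these changes was not tested. No paired analysis was possible because the columns carry no replicate number of the labels. The biological coefficient of variation of 40.9%, or 23.5% with the naming batch as a term, and 3 libraries per genotype limit what could be resolved.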
